A study of Mus musculus with 12 samples.

Results

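The follicle lineage transcription factors other than forkheads were followed here as 10 genes, Lhx2, Tbx1, Runx1, Runx3, Barx2, Gata3, Gata6, Trp63, Msx1 and Msx2. They were chosen by name, and each had a row in both deposited count tables, which held 37958 genes for early telogen and 38803 genes for anagen. RNA was sequenced from stem cells of hair follicles in mouse back skin, sorted as positive for H2BGFP, CD34 and CD49f and negative for Sca-1. The early telogen groups were Foxc1 knockouts (KO; K14-H2BGFP, K14Cre, Foxc1 fl/fl; n = 4) and controls without Cre (WT; K14-H2BGFP, Foxc1 fl/fl; n = 3), and the anagen groups were KO (n = 2) and WT (n = 3) of the same genotypes. All 12 libraries came from mice with the K14-H2BGFP reporter and floxed Foxc1 alleles, and the keratin 14 promoter that drives Cre is active in basal keratinocytes of the whole skin epithelium, not in follicle stem cells alone. By their titles, anagen mice were at postnatal days 29 to 31 and early telogen mice at day 47, apart from 1 KO library at day 43.

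Hair follicles cycle between growth (anagen) and rest (telogen), and stem cells of the bulge fuel each new growth phase. The factors studied here give these cells their identity or steer their descendants. Lhx2, Tbx1 and Runx1 act in mouse bulge stem cells, where Lhx2 helps to keep them undifferentiated, Tbx1 sustains their self-renewal and Runx1 promotes entry into growth. Trp63 encodes p63, the master regulator of stratified epithelia, Gata3 directs the inner root sheath, and Gata6 marks the upper follicle and the sebaceous duct. Barx2 is a homeobox factor of the follicle, and Msx1 and Msx2 are homeobox repressors downstream of BMP signals. Forkhead factors, the family of Foxc1, bind DNA at a core of the letters TAAACA.

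Levels are given as CPM, a gene's counts relative to the total of its library over all gene rows, and as mean ± SD. Changes are log2 fold changes ± SE from edgeR's quasi-likelihood test, and the threshold was an adjusted p of 0.05 over all genes tested. Totals over genes ran from 2662083 to 11821916 counts in early telogen and from 29025553 to 54482469 in anagen, so low members are less precise in early telogen. Foxc1 was at 0.910 to 3.11 CPM in early telogen KO against 43.8 to 61.2 CPM in WT, and at 0.206 and 0.276 CPM in anagen KO against 34.6 to 116 CPM in WT, with edgeR adjusted p-values of 8.63e-06 in early telogen and 0.0522 in anagen. Bulge markers (9 genes, among them Cd34, Krt15 and Sox9) summed to 21720 CPM or more in every library, and none was at 0, although the sum includes the general basal keratins Krt5 and Krt14. Cd34 was lower in early telogen KO (-1.20 ± 0.21, edgeR adjusted p = 0.0212), where 8 of the 9 had negative log2 fold changes. In anagen Krt15 and Nfatc1 were at -2.12 ± 0.41 and -1.37 ± 0.30 and did not pass (edgeR adjusted p = 0.156 and 0.195). The 9 markers did not share a direction there: 5 values were negative, 4 were positive, and the median was -0.01. Anagen WT replicate 3 was titled day 31 but carried an age label of 43 days, and early telogen KO replicate 5 was titled day 43 with an age label of 47 days, and both take their stage from the table in which they were deposited. Each stage came as its own table, so a stage difference cannot be told apart from a difference between the tables. In bulk samples, fewer cells of a type and less RNA per cell cannot be told apart.

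None of the 10 factors passed the test for loss of Foxc1 in either stage. In early telogen, edgeR called 0 of the 10, against 0.956% of all 12030 genes tested, and 2 members, Gata3 and Msx1, had an unadjusted p under 0.05, as did 1448 of the 12030 genes. In anagen edgeR called 0 of the 10, and 0% of all 14409 genes, with 1 member, Lhx2, and 1456 genes in all at an unadjusted p under 0.05. DESeq2 also called 0 of the 10 in each stage, while it called 500 genes in anagen. The members' median log2 fold change was 0.00 in early telogen and 0.01 in anagen, beside medians of 0.03 and 0.02 over all genes tested. KO and WT libraries did not overlap for 1 of the 10 members in early telogen, against 13.1% of all genes, and for 2 of the 10 in anagen, against 29.7%.

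Some members passed between the stages, in numbers near the share of all genes that passed. Between early telogen and anagen, 1 member was higher and 1 lower in KO cells, against 10.2% and 12% of all genes, and 2 members were higher and 1 lower in WT cells, against 13.6% and 15.9% of all genes. Barx2 fell in both genotypes, Gata6 rose in both, and Runx1 passed in WT alone. The ranges of the stages did not overlap for 4 of the 10 members in KO (44.9% of all genes) and for 3 of the 10 in WT (47.9% of all genes). The KO effect did not differ between stages for any of the 10 by edgeR, which called 0.144% of all genes in that test, and no member had an unadjusted p under 0.05 there or passed by DESeq2.

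**Figure D1:**
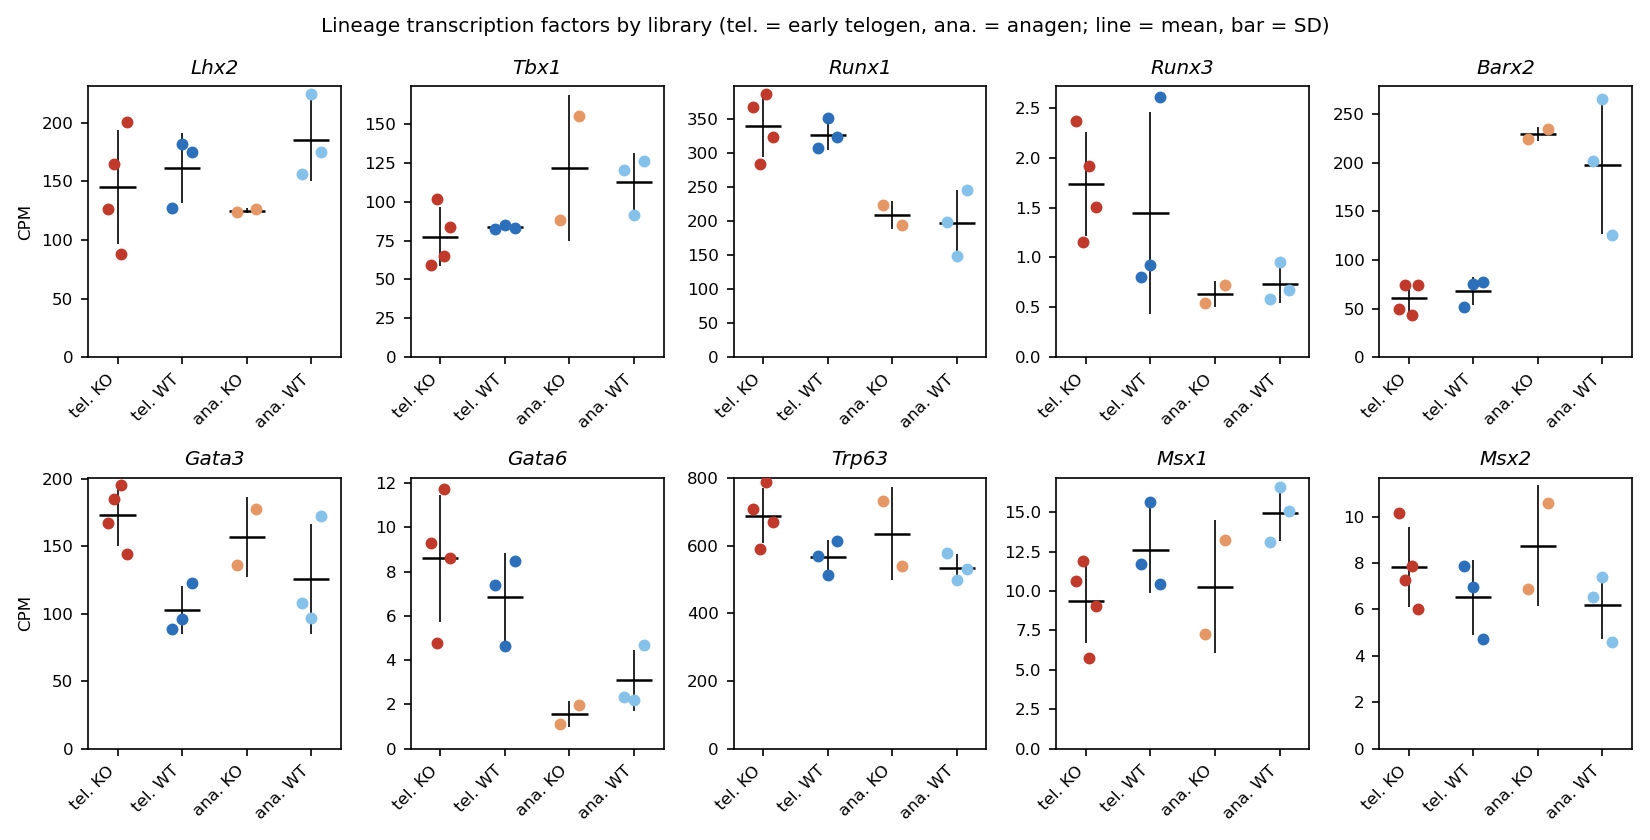
Level of each of the 10 factors (CPM, linear axis from 0) in every library, by group in the order early telogen KO, early telogen WT, anagen KO and anagen WT; each point is a library, the horizontal line is the mean and the bar is the SD. Barx2 lies at 43.9 to 77.2 CPM in the 7 early telogen libraries and at 125 to 266 CPM in the 5 anagen libraries.

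Runx1, a Runt-domain factor, passed between the stages in WT, as neither Lhx2 nor Tbx1 did. Its gene (ENSMUSG00000022952.17) spans chr16:92601466-92826149 on the minus strand in GRCm38 and has 2 start sites in the RefSeq promoter table (GRCm38.p6). The count table adds up reads from both starts, so the values below do not separate them. The sequences are shown because they surround the 2 annotated starts, and because the upstream one was the only 1 of 11 member promoters with the forkhead core. There the core begins at base 273, among the bases after the start. Use of either start in these cells was not tested. Each runs 5′ to 3′ on the minus strand, from 250 bases before the start to 30 after it, and capitals mark TAAACA.
Runx1 upstream start, chr16:92826045-92826324: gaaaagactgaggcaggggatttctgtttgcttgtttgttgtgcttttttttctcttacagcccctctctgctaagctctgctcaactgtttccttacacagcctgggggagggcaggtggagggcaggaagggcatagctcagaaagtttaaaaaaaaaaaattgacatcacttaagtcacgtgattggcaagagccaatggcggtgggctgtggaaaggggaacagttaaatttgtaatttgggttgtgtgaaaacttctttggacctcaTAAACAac
Runx1 downstream start, chr16:92697300-92697579: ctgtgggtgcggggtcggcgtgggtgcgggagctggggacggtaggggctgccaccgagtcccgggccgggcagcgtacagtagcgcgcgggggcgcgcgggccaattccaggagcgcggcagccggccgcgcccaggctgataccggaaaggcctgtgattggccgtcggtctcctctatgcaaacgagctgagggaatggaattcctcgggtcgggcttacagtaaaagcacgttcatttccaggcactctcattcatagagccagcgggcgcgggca

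The upstream Runx1 region has a GC content of 45% over its 300 bases in the table, and the downstream region 69%. Promoters were in the table for 7 of the 10 members. TAAACA, searched on both strands, was in 1 of their 11 promoters and in 13.44% of all 32851 promoters. The longer form GTAAACA, which contains the shorter one, was in 0 of the 11 and in 3.65% of all. A match is a run of letters in this window and was not tied to binding.

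Runx1 was at 368, 284, 386 and 323 CPM in early telogen KO replicates 1, 2, 3 and 5, and at 224 and 195 CPM in anagen KO replicates 1 and 2. In WT it was at 307, 351 and 323 CPM in early telogen replicates 1, 3 and 4, and at 198, 148 and 245 CPM in anagen replicates 1, 2 and 3. Every early telogen library thus lay above every anagen library, in both genotypes. The stage difference was 0.83 ± 0.20 in WT (95% interval 0.38 to 1.28, edgeR adjusted p = 0.0139), and it was 0.72 ± 0.27 in KO (0.11 to 1.32), where the edgeR adjusted p of 0.0824 missed the threshold. The WT call was lost without early telogen WT replicate 3 (edgeR adjusted p = 0.0592). In KO, Runx1 passed by DESeq2 (adjusted p = 0.0418), without early telogen KO replicate 2 (edgeR adjusted p = 0.0212) and in a fit of all 12 libraries (edgeR adjusted p = 0.0431). Mean CPM was slightly higher in KO than in WT, at 340 against 327 in early telogen and 209 against 197 in anagen. The edgeR test also scales libraries beyond their totals. Its log2 fold change for KO was -0.10 ± 0.21 in early telogen (95% interval -0.56 to 0.36) and 0.00 ± 0.25 in anagen (-0.60 to 0.59). Neither passed. The difference between these KO effects, which is also that between the stage effects of the genotypes, was -0.12 ± 0.33 (edgeR adjusted p = 0.993). The nearest profiles over the 12 libraries, by the root mean square difference of log2(CPM + 1) after centring each gene on its mean, were those of the RNA-binding protein genes Hnrnph1 (0.0982) and Rbm39 (0.133), where the median over the 9346 genes compared was 0.593. The gene shares 106 exonic bases with Gm26626 on the opposite strand, a gene at no more than 0.224 CPM in any library.

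Runx3, the other Runt-domain factor, is known from T cells, Langerhans cells and the dermal papilla, and it was at the edge of detection. It had 4 to 28 counts in the early telogen KO libraries, 9 to 16 in early telogen WT, 21 in each anagen KO library and 21 to 32 in anagen WT. Its level was 1.15 to 2.37 CPM in early telogen KO and 0.540 and 0.723 CPM in anagen KO, with no overlap. In WT it was 0.803 to 2.61 CPM in early telogen and 0.587 to 0.956 CPM in anagen, with overlap. The stage difference of 1.48 ± 0.74 in KO and 1.01 ± 0.69 in WT did not pass (edgeR adjusted p = 0.171 and 0.303). Of 13 immune cell marker genes, none was at 0 in every library of a group. They summed to 66.5 to 266 CPM in early telogen KO and 16.4 to 114 in early telogen WT. In anagen they summed to 60.4 to 236 CPM in KO and 27.0 to 149 in WT. The 9 markers of fibroblasts and the dermal papilla summed to 521 to 5103 CPM in early telogen KO and 278 to 1584 in WT. In KO the highest sum was that of replicate 2, and Corin was at 0 in every early telogen WT library. Their anagen sums were 425.9 to 728.3 CPM in KO and 297.5 to 855.5 in WT. The part of either cell group in the Runx3 values was not tested.

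Lhx2, a LIM-homeodomain factor on chromosome 2 (38339281 to 38369733, plus strand), did not pass between the stages. It was at 127, 165, 88.1 and 201 CPM in early telogen KO replicates 1, 2, 3 and 5, and at 127, 182 and 175 CPM in early telogen WT replicates 1, 3 and 4. In anagen it was at 123 and 127 CPM in KO replicates 1 and 2, and at 157, 225 and 175 CPM in WT replicates 1, 2 and 3. Both anagen KO libraries lay below the 3 anagen WT libraries, while the early telogen groups overlapped. The anagen log2 fold change was -0.66 ± 0.23 (95% interval -1.20 to -0.12), and it did not pass (edgeR adjusted p = 0.392). In early telogen the KO log2 fold change was -0.35 ± 0.26 (edgeR adjusted p = 0.653), and the difference between the stages' KO effects was 0.29 ± 0.39 (edgeR adjusted p = 0.974). Early telogen minus anagen was 0.20 in KO and -0.10 in WT, and neither passed. By their labels both anagen KO mice were female, whereas 2 of the 3 WT mice were male, so sex overlaps genotype here.

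Tbx1, a T-box factor on chromosome 16 (18580979 to 18590671, minus strand), was at 59.5, 101, 65.1 and 83.4 CPM in early telogen KO replicates 1, 2, 3 and 5, against 82.7, 84.8 and 83.4 CPM in WT replicates 1, 3 and 4. In anagen it was at 88.2 and 155 CPM in KO replicates 1 and 2, against 121, 91.1 and 126 CPM in WT replicates 1, 2 and 3. All 3 early telogen WT libraries lay below all 3 anagen WT libraries, by a narrow margin for anagen WT replicate 2, whereas the KO libraries of the stages overlapped. Early telogen minus anagen was -0.67 ± 0.27 in KO (edgeR adjusted p = 0.102) and -0.34 ± 0.16 in WT (edgeR adjusted p = 0.148), and neither passed. In KO it passed with low counts kept in (edgeR adjusted p = 0.0303) and in a fit of all 12 libraries (0.0484). It also passed in 1 of the 6 fits with 1 library left out, and so under 3 of 10 alternatives. It did not pass by DESeq2 or with DESeq2's size factors. With 1 library left out, the KO value ran from -1.04 to -0.25, so its size depended on single libraries. Leaving out an anagen KO library leaves 1 in that group, which is then assumed to vary like the early telogen KO libraries. The KO effect was -0.30 ± 0.18 in early telogen and 0.02 ± 0.28 in anagen, neither past the threshold.

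**Figure D2:**
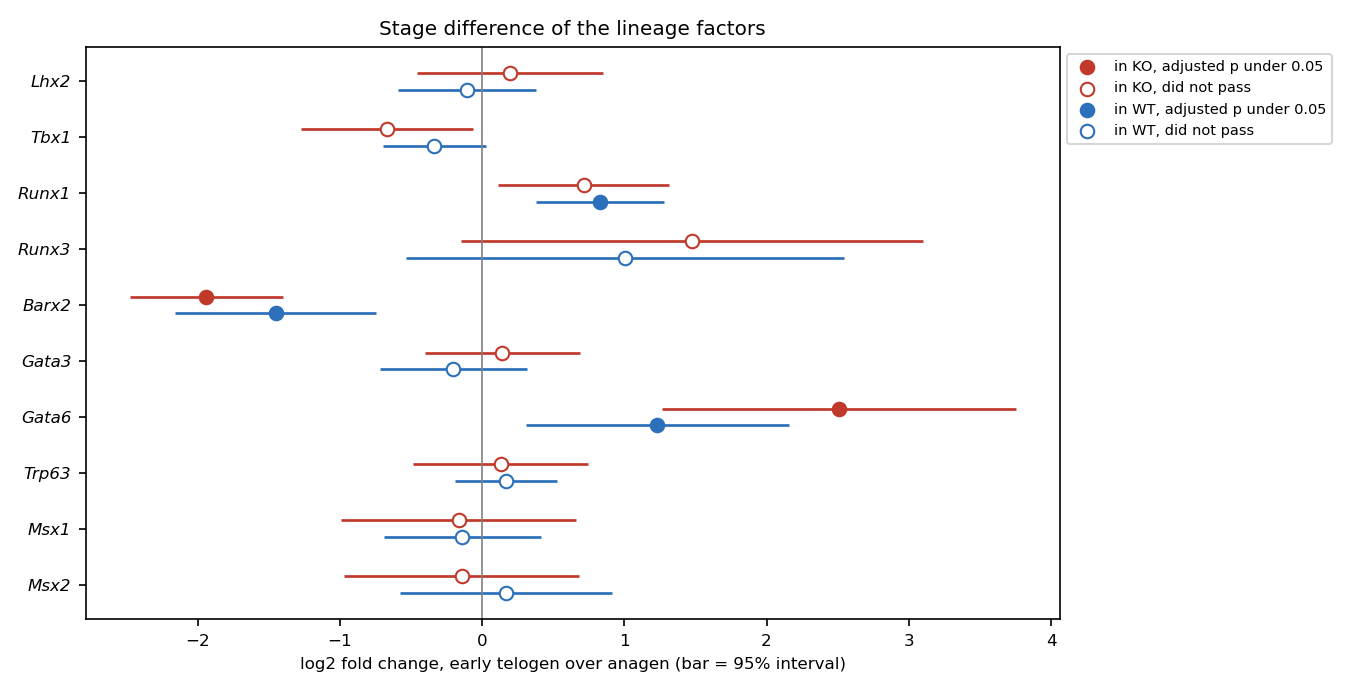
Log2 fold change of early telogen over anagen for each factor, with its 95% interval, in KO and in WT; filled points passed at an edgeR adjusted p under 0.05. Barx2 is at -1.94 in KO and -1.45 in WT, and Gata6 at 2.51 in KO and 1.23 in WT.

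Barx2 fell in early telogen in both genotypes, with the smallest p of the 10 members in each. The gene (ENSMUSG00000032033.11) lies on chromosome 9 from 31846044 to 31913462 on the minus strand in GRCm38, with 4 exon blocks of 1968 bases in all. In KO it was at 49.9, 74.5, 43.9 and 74.7 CPM in early telogen replicates 1, 2, 3 and 5, and at 224 and 234 CPM in anagen replicates 1 and 2. In WT it was at 51.5, 75.0 and 77.1 CPM in early telogen replicates 1, 3 and 4, and at 202, 266 and 125 CPM in anagen replicates 1, 2 and 3. No early telogen library reached the lowest anagen library, WT replicate 3. The difference was -1.94 ± 0.24 in KO (95% interval -2.47 to -1.40, edgeR adjusted p = 0.000449) and -1.45 ± 0.31 in WT (-2.16 to -0.75, edgeR adjusted p = 0.0107). It also passed under all 10 alternatives tried in each genotype, with values of -2.10 to -1.84 in KO and -1.68 to -1.16 in WT. Without anagen WT replicate 3, the library with the differing age label, the WT difference was -1.68 (edgeR adjusted p = 0.00331).

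KO and WT ranges of Barx2 overlapped in both stages. In early telogen its mean was 60.7 ± 16.2 CPM over the 4 KO libraries and 67.9 ± 14.2 CPM over the 3 WT libraries, for a log2 fold change of -0.36 ± 0.23 (95% interval -0.84 to 0.13). In anagen its mean was 229 ± 7.40 CPM over the 2 KO libraries and 198 ± 70.3 CPM over the 3 WT libraries, for a log2 fold change of 0.12 ± 0.32 (-0.63 to 0.88). Neither passed, nor did the difference between these effects, -0.50 ± 0.40 (edgeR adjusted p = 0.933). The genes whose 12-library profiles were most like that of Barx2, by the same root mean square log2 difference, were the lysosomal protease gene Ctsd, at 0.260, and Epb4.1l4a, at 0.277. The median over the 9346 genes was 0.937. These profiles share the libraries, their depth and the step between the tables.

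Gata3, a zinc-finger factor on chromosome 2 (ENSMUSG00000015619.10, 9857078 to 9890034, minus strand), was the member with the smallest p for loss of Foxc1 in early telogen. It was at 167, 185, 195 and 144 CPM in early telogen KO replicates 1, 2, 3 and 5, against 89.0, 95.9 and 123 CPM in WT replicates 1, 3 and 4. Every KO library lay above every WT library, with KO replicate 5 the lowest of its group and WT replicate 4 the highest of its own. The log2 fold change was 0.59 ± 0.20 (95% interval 0.16 to 1.01), with an unadjusted p of 0.0105 and an edgeR adjusted p of 0.216, and Gata3 stood at rank 585 by p among the 12030 genes. It passed under 0 of the 14 alternatives tried, where its value ran from 0.46 to 0.86 and its adjusted p from 0.144 to 0.662. In anagen it was at 136 and 178 CPM in KO replicates 1 and 2, against 108, 96.9 and 173 CPM in WT replicates 1, 2 and 3. There the groups overlapped through WT replicate 3, and the log2 fold change of 0.23 ± 0.29 did not pass (edgeR adjusted p = 0.843). Without that library it was 0.52 (edgeR adjusted p = 0.523).

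Gata3 did not pass between the stages, at 0.14 ± 0.25 in KO and -0.20 ± 0.23 in WT. Its KO effect did not differ between stages past the threshold (0.34 ± 0.35, edgeR adjusted p = 0.958). The profile most like it over the 12 libraries was that of Tfap2a, which encodes the epidermal factor AP-2 alpha, at a root mean square log2 difference of 0.169, followed by Fhod1, at 0.187, where the median over 9346 genes was 0.534. Chosen for its likeness to Gata3 in these same libraries, Tfap2a averaged 150 ± 23.9 CPM in KO and 98.4 ± 20.6 CPM in WT in early telogen. Its log2 fold change for KO there was 0.44 ± 0.20 and did not pass (edgeR adjusted p = 0.386). Markers of the matrix, inner root sheath and hair shaft, where Gata3 is known to act, summed over 11 genes to 27.8 to 76.1 CPM in early telogen KO and 22.8 to 37.2 CPM in early telogen WT, with Krt73, Krt35 and Shh at 0 in that WT group. They summed to 53 to 131 CPM in anagen KO and 52.0 to 201 CPM in anagen WT. Markers of cycling cells (8 genes) summed to 140 to 189 CPM in early telogen KO and 22.7 to 40.0 CPM in early telogen WT. The part of these cells, or of the immune cells given above, in the Gata3 values was not tested. Exons of Gata3 overlap those of 9230102O04Rik and Gm13256, which reached at most 0.533 and 1.5 CPM.

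**Figure D3:**
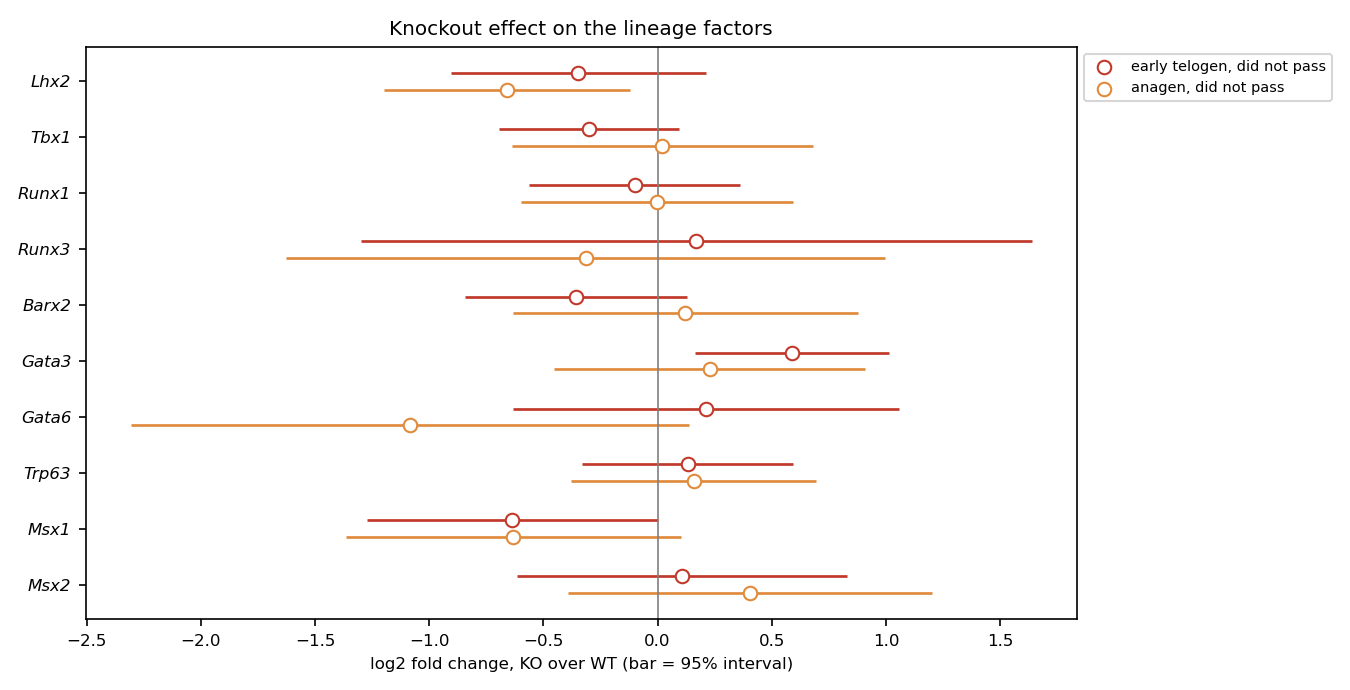
Log2 fold change of KO over WT for each factor, with its 95% interval, in early telogen and in anagen; open points did not pass. All 20 values are open, and Gata3 in early telogen (0.59), Lhx2 in anagen (-0.66) and Msx1 in early telogen (-0.64) have intervals that lie to 1 side of 0.

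Gata6, the other GATA factor (ENSMUSG00000005836.10, chromosome 18, 11052064 to 11085635, plus strand), was a low-level gene that rose in early telogen. In KO it was at 9.30, 4.80, 11.7 and 8.64 CPM in early telogen replicates 1, 2, 3 and 5, and at 1.13 and 1.96 CPM in anagen replicates 1 and 2. In WT it was at 7.41, 4.63 and 8.48 CPM in early telogen replicates 1, 3 and 4, and at 2.33, 2.22 and 4.70 CPM in anagen replicates 1, 2 and 3. The KO ranges of the stages did not overlap, while anagen WT replicate 3 reached just above the lowest early telogen WT library. The difference was 2.51 ± 0.56 in KO (95% interval 1.27 to 3.75, edgeR adjusted p = 0.0106) and 1.23 ± 0.41 in WT (0.31 to 2.16, edgeR adjusted p = 0.0485). These values rest on 23 to 147 counts per library. Exons of Gata6 share 93 bases with 1010001N08Rik on the opposite strand, a gene at no more than 0.310 CPM in any library.

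The Gata6 call in KO was lost without anagen KO replicate 1, where a single anagen KO library remained and the value was 2.14 (edgeR adjusted p = 0.0687), and held under the other 9 of 10 alternatives. The WT call held under 4 of 10 alternatives: it was lost in a fit of all 12 libraries (edgeR adjusted p = 0.0552) and without any single library other than anagen WT replicate 3, with adjusted p-values up to 0.164. Without anagen WT replicate 3 the WT difference was 1.67 (edgeR adjusted p = 0.0227). Between KO and WT, Gata6 was -1.08 ± 0.52 in anagen (95% interval -2.31 to 0.14, edgeR adjusted p = 0.547), where both KO libraries lay below the WT libraries, and 0.21 ± 0.39 in early telogen (edgeR adjusted p = 0.894). The difference between these KO effects was 1.27 ± 0.67 (-0.16 to 2.71, edgeR adjusted p = 0.825). The nearest profiles were those of Uap1 (root mean square log2 difference 0.199) and Eda, an ectodysplasin ligand gene (0.294), where the median over 9346 genes was 0.915.

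Cells of the upper follicle and sebaceous gland, where Gata6 is known in mouse, were represented by marker sums. Isthmus and infundibulum markers (6 genes) summed to 2221 to 4549 CPM in early telogen KO, 2866 to 4169 in early telogen WT, 7585 to 11300 in anagen KO and 4118 to 7412 in anagen WT. Sebaceous markers (5 genes) summed to 161 to 421, 87.6 to 502, 196 to 280 and 132 to 246 CPM in the same 4 groups. The isthmus sums were lower in early telogen than in anagen in KO, but the markers did not move together. In KO, Krt17 (-1.58 ± 0.37) and Lrig1 (-2.19 ± 0.23) fell and Atp6v1c2 rose by 1.75 ± 0.41, while Krt79 and Defb6, each at 0.28, and Cst6, at -0.93, did not pass. None of these markers was at 0 throughout a group. Their part in the Gata6 values was not tested.

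Trp63 varied least of the 10. The gene (ENSMUSG00000022510.14) spans bases 25683763 to 25892102 of chromosome 16, plus strand, with 16 exon blocks, and its isoforms are summed in the count table. It was at 707, 589, 786 and 669 CPM in early telogen KO replicates 1, 2, 3 and 5, and at 570, 512 and 614 CPM in early telogen WT replicates 1, 3 and 4. In anagen it was at 732 and 538 CPM in KO replicates 1 and 2, and at 577, 498 and 530 CPM in WT replicates 1, 2 and 3. The highest of the 12 libraries was 1.58 times the lowest, beside 10.4 times for Gata6, 6.06 for Barx2 and 4.83 for Runx3. No Trp63 comparison passed, with log2 fold changes for KO of 0.13 ± 0.21 in early telogen and 0.16 ± 0.23 in anagen, and for early telogen of 0.13 ± 0.28 in KO and 0.17 ± 0.16 in WT.

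Msx1 and Msx2, on chromosomes 5 (37820485 to 37824583) and 13 (53466884 to 53473074), were low and did not pass in any comparison. Msx1 was at 10.7, 11.9, 5.76 and 9.02 CPM in early telogen KO replicates 1, 2, 3 and 5, and at 11.7, 15.7 and 10.4 CPM in WT replicates 1, 3 and 4. In anagen it was at 7.28 and 13.3 CPM in KO replicates 1 and 2, and at 13.1, 16.6 and 15.1 CPM in WT replicates 1, 2 and 3. KO and WT overlapped in both stages, and the log2 fold change was -0.64 ± 0.29 in early telogen (unadjusted p = 0.050, edgeR adjusted p = 0.415) and -0.63 ± 0.31 in anagen (edgeR adjusted p = 0.560). Msx2 was at 6.01 to 10.2 CPM in early telogen KO and 4.73 to 7.86 CPM in WT, a log2 fold change of 0.11 ± 0.33. In anagen Msx2 was at 6.89 and 10.6 CPM in KO and 4.6 to 7.4 CPM in WT, a log2 fold change of 0.40 ± 0.34. Between the stages the values were -0.16 in KO and -0.14 in WT for Msx1, and -0.14 in KO and 0.17 in WT for Msx2. The part of matrix cells, whose marker sums are given with Gata3, in the Msx values was not tested.

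Per kilobase of exon, the order of the group's levels changed between the stages at its top. In early telogen KO, Trp63 led at 82.0 CPM per kb, above Gata3 (43.5), Lhx2 (33.0), Barx2 (30.9), Runx1 (28.3) and Tbx1 (22), and the ranges of neighbours among these 5 overlapped. In early telogen WT, Trp63 led at 67.4 CPM per kb, and Lhx2 (36.7), Barx2 (34.5), Runx1 (27.2), Gata3 (25.8) and Tbx1 (23.8) followed with overlapping neighbours. In anagen Barx2 stood first, at 116 CPM per kb in KO, above Trp63 at 75.7, and at 100 CPM per kb in WT, with a range that overlapped that of Trp63 at 63.8. Runx1 was the lowest of the upper 6 in anagen, at 17.4 CPM per kb in KO and 16.4 in WT. Msx1, Msx2, Gata6 and Runx3 followed in that order in all 4 groups, from 3.01 to 4.82 CPM per kb for Msx1 down to 0.126 to 0.347 for Runx3, with Msx1 and Msx2 overlapping in both KO groups.

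Relatives of the members by DNA-binding domain were mostly too low to test. Of 35 such genes, 8 were tested between KO and WT in early telogen and 9 in anagen, and edgeR called 0 in both, with 2 and 0 at an unadjusted p under 0.05. DESeq2 called 1 higher in early telogen. Between the stages, 1 rose and 1 fell of 10 tested in KO, and 0 passed of 8 tested in WT by edgeR (0 at an unadjusted p under 0.05, 1 lower by DESeq2). Those that passed were Trp73, the p63 relative p73 (1.28 ± 0.33, edgeR adjusted p = 0.0203), and Gata2 (-2.40 ± 0.75, edgeR adjusted p = 0.0426). Trp73 averaged 36.0 ± 14.8 CPM in early telogen KO and 14.5 ± 3.53 CPM in anagen KO. Neither was called without early telogen KO replicate 5, where the list had 0 calls.

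Cofactors of these factors (20 genes of the LIM, Runt, GATA and Groucho complexes) were called in both directions between the stages. Of those tested, 2 rose and 2 fell of 16 in KO, where 10.2% of all genes rose and 12% fell, a share near that background. In WT 3 rose and 5 fell of 17, where 13.6% of all genes rose and 15.9% fell, with medians of 0.09 in KO and -0.09 in WT beside -0.03 and -0.10 over all genes. Tle4, a Groucho corepressor, rose by 1.97 ± 0.36 in KO and by 1.21 ± 0.19 in WT, while Aes, a short Groucho relative, fell, with log2 fold changes of -1.12 ± 0.29 in KO and -1.41 ± 0.20 in WT. The LIM-complex gene Ssbp2 fell as well, with -1.08 ± 0.31 in KO and -1.17 ± 0.18 in WT, and the GATA partner Zfpm1 rose by 1.21 ± 0.24 in KO and 1.17 ± 0.21 in WT. Lmo1 fell in WT (-1.06 ± 0.18) and was at -0.47 ± 0.25 in KO, where it did not pass. Cbfb, the shared partner of Runx1 and Runx3, averaged 146 ± 17.9 CPM in early telogen KO, 150 ± 14.9 CPM in early telogen WT, 127 ± 31.0 CPM in anagen KO and 137 ± 13.6 CPM in anagen WT. For loss of Foxc1, edgeR called 0 of 15 in early telogen and 0 of 17 in anagen, with 3 at an unadjusted p under 0.05 in each, while DESeq2 called 1 higher and 1 lower in early telogen and 1 lower in anagen. The smallest p in both stages was that of Tle4, at -0.93 ± 0.21 in early telogen (edgeR adjusted p = 0.0547) and -1.70 ± 0.38 in anagen (edgeR adjusted p = 0.212).

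Genes known to depend on p63 in keratinocytes were tested beside Trp63, which itself did not pass. Of 19 tested between the stages, 4 rose and 2 fell in KO and 9 rose and 1 fell in WT, where over all genes 10.2% rose and 12% fell in KO and 13.6% rose and 15.9% fell in WT. The medians were 0.43 in KO and 0.58 in WT, beside -0.03 and -0.10 over all genes. Dsp, the desmosome linker desmoplakin, averaged 4242 ± 397 CPM in early telogen KO and 1929 ± 283 CPM in anagen KO, a rise of 1.14 ± 0.27 (edgeR adjusted p = 0.0146). In WT it averaged 6223 ± 415 CPM in early telogen and 2148 ± 223 CPM in anagen, a rise of 1.63 ± 0.20 (edgeR adjusted p = 0.00122). In both genotypes the desmosomal cadherin Dsc3 rose, by 1.06 ± 0.32 in KO and 1.08 ± 0.18 in WT, as did the tight junction gene Cldn1, by 1.59 ± 0.36 in KO and 0.83 ± 0.23 in WT. The basement membrane gene Fras1 fell in both, with -2.13 ± 0.38 in KO and -3.68 ± 0.78 in WT. The hemidesmosome collagen Col17a1 rose by 0.96 ± 0.21 in WT and was at 0.90 ± 0.30 in KO (edgeR adjusted p = 0.0514), and the integrin subunit Itgb1 rose by 0.96 ± 0.21 in WT and was at 0.44 ± 0.37 in KO. The integrin subunit Itga3 fell in KO (-0.86 ± 0.24) and was at -0.55 ± 0.21 in WT (edgeR adjusted p = 0.0683). For loss of Foxc1, edgeR called 0 of 19 in early telogen, with 8 at an unadjusted p under 0.05 (1448 of all 12030 genes) and 2 lower by DESeq2, and 0 of 20 in anagen, with 2 at an unadjusted p under 0.05 and 0 by DESeq2. The median was -0.28 in early telogen and -0.22 in anagen, and the smallest p in early telogen was that of Dsp (-0.73 ± 0.21, edgeR adjusted p = 0.146).

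Other follicle and epidermis transcription factors changed in both directions between the stages. Of those tested, 10 rose and 10 fell of 53 in KO, where 10.2% of all genes rose and 12% fell, and 13 rose and 7 fell of 54 in WT, where 13.6% of all genes rose and 15.9% fell. The medians were 0.26 in KO and 0.14 in WT. Klf3, a Krüppel-like repressor, rose in both, by 2.04 ± 0.28 in KO and 1.98 ± 0.18 in WT, and Irx4, an Iroquois homeobox gene, fell in both, with -2.27 ± 0.31 in KO and -1.71 ± 0.22 in WT. The ETS factor Etv4 fell in both, with -2.62 ± 0.34 in KO and -2.64 ± 0.63 in WT, and the zinc-finger factor Casz1 rose by 1.07 ± 0.28 in KO and 1.18 ± 0.17 in WT. The ETS factor Ehf rose by 2.11 ± 0.29 in KO and was at 0.18 ± 0.66 in WT, where it did not pass. Whether these stage differences differed between genotypes was tested as the difference of the KO effect, in which edgeR called 0 genes of these lists, with 1 relative and 12 other factors at an unadjusted p under 0.05, and DESeq2 called 1 of the other factors. For loss of Foxc1, edgeR called 0 of 53 in early telogen and 0 of 57 in anagen, with 15 and 12 at an unadjusted p under 0.05. DESeq2 called 3 lower in early telogen, and 2 higher and 2 lower in anagen. The smallest p was that of Klf3 in early telogen (-0.79 ± 0.19, edgeR adjusted p = 0.0868) and of Irx4 in anagen (1.09 ± 0.26, edgeR adjusted p = 0.222).

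Leaving out the libraries whose labels disagree, an alternative chosen after seeing the data, did not change the members' stage counts. Without anagen WT replicate 3, 2 of the 10 members rose and 1 fell in WT, as with it. Of the p63-dependent genes 11 rose and 1 fell without it, and of the other factors 12 rose and 4 fell. Without early telogen KO replicate 5, 1 member rose and 1 fell in KO, as with it, and 5 p63-dependent genes rose and 1 fell. Of the other factors 7 rose and 9 fell there, and of the cofactors 2 rose and 1 fell.

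**Figure D4:**
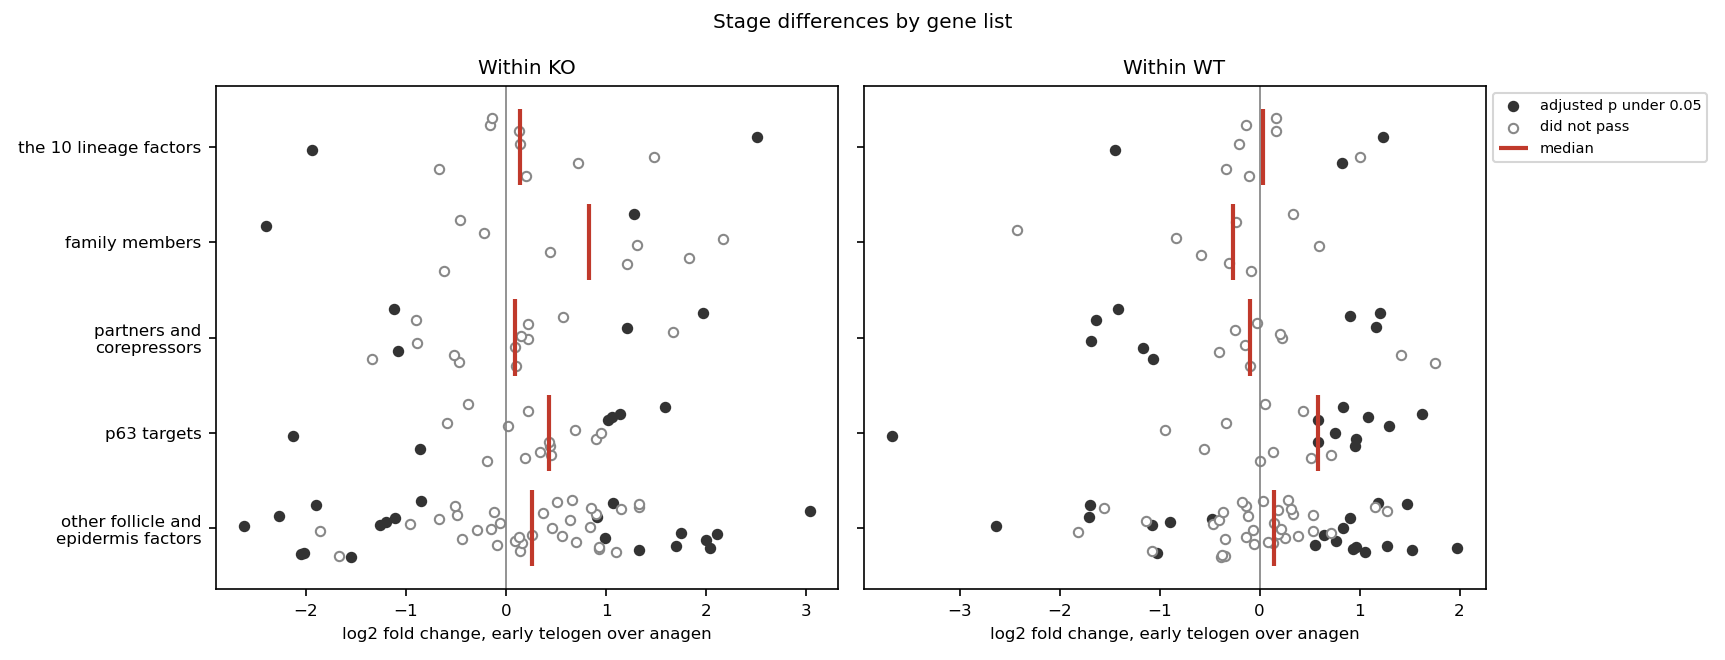
Log2 fold change of early telogen over anagen for every tested gene of each list, within KO (left) and within WT (right); filled points passed at an edgeR adjusted p under 0.05 and the vertical line is the list's median. Among the 10 factors 2 points are filled in KO and 3 in WT, and among p63-dependent genes 6 are filled in KO and 10 in WT.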

How the data were processed

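The deposited values were raw read counts for each gene, with a separate table for each stage. Per the submitters' processing notes, the authors used TopHat2, HTSeq and the mm10 genome; versions and the strand option of counting were not given in the sources used here. Broken lines, 3 in the early telogen table, were left out. The tables shared 37931 gene names, which the stage comparisons used. In the anagen libraries 31.1% and 32.8% of tallied reads in KO, and 20.1% to 25.8% in WT, mapped to several places and were not counted for genes.

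CPM was taken over all gene rows without the scaling factors of the tests, so small CPM differences can disagree with the log2 fold changes. Tests used edgeR 4.0.16 in R 4.3.3 (TMM, filterByExpr with a minimum count of 10 and a minimum total of 15, robust quasi-likelihood F-tests, Benjamini-Hochberg adjustment over all genes tested), which was first tested on simulated data. Genotype was compared within a stage, stage within a genotype, and the difference of the KO effect over all 12 libraries. Alternatives were DESeq2 1.42.0, its size factors, no filter, leaving out libraries, 1 fit of all libraries, a replicate block and sex as a covariate. Gene positions and exon lengths came from GENCODE M21 (GRCm38, the same assembly as mm10) and promoters from RefSeq. Nothing in the labels states that replicates came from separate animals, and p-values then measure only the spread between these samples, which may be technical. The members and lists were chosen with earlier results of these data known. All members are named; of a list, up to 4 genes of smallest p that passed in a comparison, or up to 2 where none passed.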

Additional observations from a re-analysis of the deposited data

How the results depend on the processing

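Counts over all genes moved with the settings. For KO against WT in early telogen (115 genes called), DESeq2 called 399, no filter on low counts 338, a fit of all 12 libraries 39, the replicate block 11 and leaving out both KO replicate 2 and WT replicate 3 47, and leaving out 1 library gave 19 (without WT replicate 3) to 131. In anagen (0 called), DESeq2 called 500, no filter 306, the fit of all 12 libraries 154, a block by day of title 253 and sex as a covariate 1, and leaving out 1 library gave 0 to 95 (without WT replicate 1). Leaving out 1 library gave 2312 to 3329 calls between the stages in WT (3748 with all) and 1382 to 3640 in KO (2835 with all). For the difference of the KO effect (19 called), DESeq2 called 148 and no filter 409, and leaving out 1 library gave 0 to 55. The shared numbers did not count as pairing, since only 2 pairs exist in each stage (correlations of deviations 0.106 and 0.0532 in early telogen, 0.414 and 0.359 in anagen), and a fit with the block leaves 1 residual degree of freedom. No member passed for loss of Foxc1, or for the difference of its effect, under any setting. Uncalled log2 fold changes near 0 changed sign. For KO in early telogen, Runx1 was 0.092 with the block and 0.13 with both libraries left out; in anagen, Tbx1 was -0.16 with the block and -0.066 with sex as a covariate, where Runx1 was 0.0032 and Runx3 0.024. With 1 library left out, the values for KO in early telogen ran from -0.21 to 0.033 for Runx1, -0.16 to 0.84 for Runx3, -0.037 to 0.46 for Gata6 and -0.076 to 0.21 for Msx2; for KO in anagen from -0.44 to 0.36 for Tbx1, -0.17 to 0.18 for Runx1, -0.12 to 0.41 for Barx2 and -0.093 to 0.36 for Trp63; for the stages in WT from -0.26 to 0.078 for Lhx2 and -0.36 to 0.10 for Gata3; for the stages in KO from -0.052 to 0.34 for Lhx2, -0.054 to 0.30 for Gata3, -0.13 to 0.35 for Trp63, -0.55 to 0.29 for Msx1 and -0.44 to 0.15 for Msx2; and for the difference of the KO effect from -0.68 to 0.10 for Tbx1, -0.30 to 0.034 for Runx1, -0.27 to 0.21 for Trp63, -0.39 to 0.45 for Msx1 and -0.58 to 0.0023 for Msx2. The cause of these changes was not tested. Low counts limit Runx3, Gata6 and both Msx genes, with as few as 4 counts for Runx3.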
